A study of Mus musculus with 6 samples.

Results

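The genes described here encode the proteins of the mitochondrial ribosome and the machinery that carries proteins into mitochondria. They were taken by symbol: Mrpl and Mrps followed by a number for the large and small ribosomal subunits, and Timm and Tomm followed by a number for the translocases of the inner and outer membrane. Of the 22183 genes in the deposited table, 103 fitted these patterns, with 49 Mrpl, 29 Mrps, 15 Timm and 10 Tomm genes, and 101 of them passed the filter on low counts. The table holds messenger RNA levels of mouse kidney. In 3 libraries the mice had received a plasmid carrying Wnt1, which codes for a signalling protein that acts through beta-catenin, and in 3 others the empty plasmid pcDNA3. The genotype label reads as Wnt1 overexpression in the first group and control in the second, and all 6 libraries share 1 batch label. Strain, sex, age, time after the plasmid, the promoter on the plasmid and any kidney injury are not given in the labels, while the series title names the progression from AKI to CKD (acute injury to chronic disease). Whether the libraries of a group are separate animals is not stated, so the p-values rest on a spread that may be technical.

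Mitochondria keep a small genome of their own, and the few proteins it encodes, all subunits of the respiratory chain or the ATP synthase, are made on a ribosome whose every protein is encoded in the nucleus. These ribosomal proteins, like nearly all other mitochondrial proteins, are made in the cytosol and enter through the TOM complex of the outer membrane. Proteins with a cleavable presequence then pass the TIM23 complex with the help of an ATP-driven motor, while carrier proteins are escorted across the intermembrane space by small TIM chaperones and inserted by the TIM22 complex. In the kidney the proximal tubule and the thick ascending limb are especially rich in mitochondria.

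Counts summed to between 23585020 and 27218085 per library with the Wnt1 plasmid and to between 24753193 and 26072435 with the empty vector. Levels below are CPM, counts scaled to a common library size by the library total and by the TMM factor, which corrects for a few abundant genes taking a changing share of reads. That factor was 1.12 to 1.19 with the Wnt1 plasmid and 0.848 to 0.879 with the empty vector. Wnt1 itself had 0, 1 and 0 counts in Wnt1 replicates 1, 2 and 3 and 0 in each empty-vector library, so it did not check the labels. Replicate 3 of both groups stood apart from the other 4 libraries on the second principal component, which held 14.7% of the variance. All 16 proximal tubule markers were detected.

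With TMM scaling, most genes of the mitochondrial ribosome and import machinery were measured at modestly lower levels with the Wnt1 plasmid. On that scale 1 gene went clearly the other way. In the edgeR quasi-likelihood test with an adjusted p under 0.05, 27 of the 101 tested members were lower and 1, Mrpl33, was higher. Over all 14432 tested genes, 18.7% were called lower and 22.4% higher, against 26.7% and 0.99% of the members. The members' log2 fold changes (Wnt1 plasmid over empty vector) ran from -0.78 to 0.89 with a median of -0.32, beside a median of 0.05 for all tested genes. Of the 101, 93 lay below 0 and 94 below the median of all genes. The 2 groups did not overlap for 42 members that were lower and 1 that was higher with the Wnt1 plasmid, against 25.3% and 28.2% of all tested genes, and the 28 called members were all among these.

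Whether a member counted as lower depended on how the libraries were scaled. With library totals alone, the median of all tested genes moved to 0.47 and that of the members to 0.10, so the members lay 0.37 (log2) below the median of all genes with TMM and 0.38 below it with library totals. The calls then turned to 1 lower (Mrpl4) and 11 higher of 101 members, beside 8.92% lower and 44% higher of all tested genes. Leaving out the libraries numbered 3 of both groups on the TMM scale gave 69 lower and 1 higher, beside 30.4% and 32% of all genes. Leaving out Wnt1 replicates 1, 2 and 3 in turn gave 14, 10 and 64 lower (13.9%, 9.9% and 63.4% of the members), beside 13.7%, 13.3% and 27.2% of all tested genes. Leaving out empty-vector replicates 1, 2 and 3 in turn gave 16, 12 and 9 lower (15.8%, 11.9% and 8.91%), beside 13%, 12.2% and 12.6%. The share of members called lower was thus below that of all genes without Wnt1 replicate 2 or without empty-vector replicate 2 or 3. Mrpl33 stayed higher each time. Changes below are on the TMM scale unless another is named, and every call of a lower member other than Mrpl4 was lost with library totals.

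**Figure D1:**
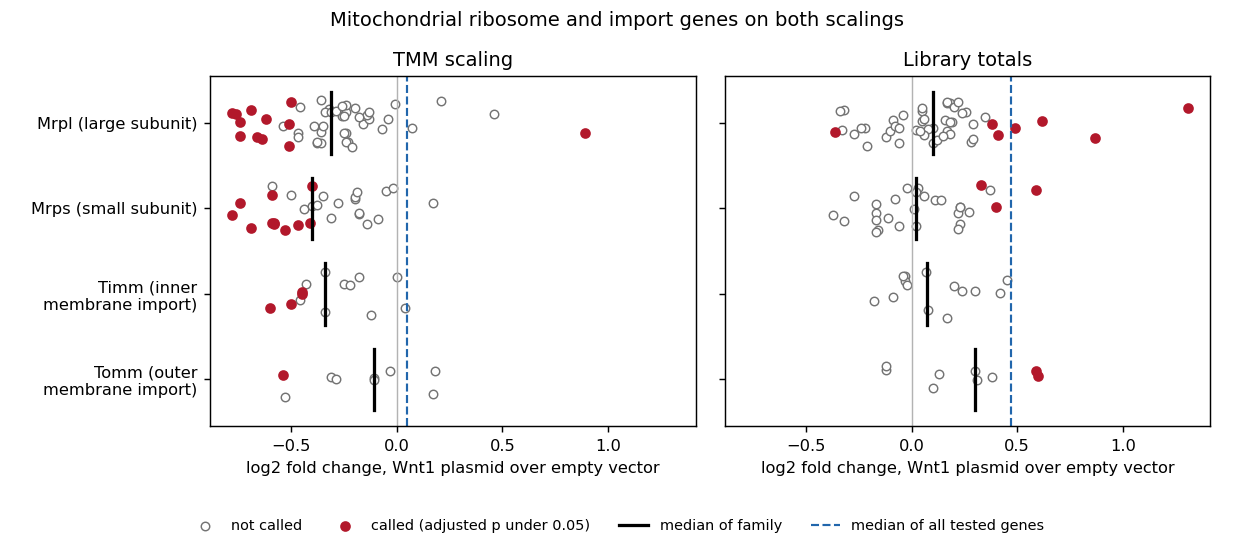
Each point is 1 tested gene, placed by its log2 fold change (Wnt1 plasmid over empty vector, x axis) within its family (y axis), with TMM scaling on the left and library totals on the right. Filled points were called at an adjusted p under 0.05, black bars are family medians and the dashed line is the median of all tested genes (0.05 and 0.47). Under both scalings each family's median lies left of the dashed line, and Mrpl33 lies farthest right.

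Among the large-subunit genes, Mrpl33 was the only one called higher, and 11 of 49 were called lower (22.4%, near the 18.7% of all tested genes; median log2 fold change -0.31). Mrpl33, which encodes the relative of bacterial ribosomal protein L33, had 28.3, 25.9 and 33.2 CPM in Wnt1 replicates 1, 2 and 3, against 15.3, 14.1 and 17.6 CPM in empty-vector replicates 1, 2 and 3. Every Wnt1 library stood above every empty-vector library. The log2 fold change was 0.89 ± 0.16 (standard error; edgeR adjusted p = 0.00286), a 1.86-fold difference. It was called higher in all 18 alternatives, with log2 fold changes of 0.68 to 1.31 and adjusted p of 6.24e-05 to 0.0114. Its annotated transcript shared 26% of its 75-base stretches with the overlapping gene Gm43809, so some reads could belong to either.

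Mrpl4, whose product lines the tunnel through which the new protein leaves the ribosome, had 49.5, 48.5 and 65.4 CPM with the Wnt1 plasmid, against 89.5, 94.3 and 96 CPM with the empty vector. The groups were clearly apart, with Wnt1 replicate 3 nearest to the empty-vector libraries. The log2 fold change was -0.78 ± 0.15 (edgeR adjusted p = 0.0044), and -0.36 with library totals (adjusted p = 0.0491). Mrpl4 was called lower in 17 of 18 alternatives, which was not typical. Of the other members called lower, Mrpl10, Mrpl2, Mrpl28, Mrps2, Mrps35 and Mrps6 kept the call in 14 of 18. Mrpl12, Mrpl37 and Timm17b kept it in 8, Mrps9 and Mrps30 in 7, and Mrps12 and Mrps21 in 6.

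Mrpl10, a protein at the base of the ribosomal stalk, had 51.4, 46.2 and 66.2 CPM with the Wnt1 plasmid, against 84.4, 92.4 and 96 CPM with the empty vector (-0.74 ± 0.16, edgeR adjusted p = 0.00762). Mrpl2, which lies near the site where peptide bonds form, had 36.2, 32.9 and 48.6 CPM, against 62.3, 62.3 and 72.3 CPM with the empty vector (-0.74 ± 0.17, edgeR adjusted p = 0.0103). In both genes Wnt1 replicate 3 was the highest of its group and the groups still did not meet. Mrpl12 is the relative of the bacterial stalk protein L7/L12, and of the members it had the highest mean level per length in both groups. It had 154, 117 and 195 CPM with the Wnt1 plasmid, against 211, 229 and 275 CPM with the empty vector. Its groups were apart by a narrow margin, between Wnt1 replicate 3 and empty-vector replicate 1 (-0.62 ± 0.20, edgeR adjusted p = 0.0402). The other Mrpl genes called lower were Mrpl16, Mrpl28, Mrpl37, Mrpl38, Mrpl39, Mrpl43 and Mrpl44, with log2 fold changes of -0.76 (Mrpl28) to -0.50 (Mrpl43, of whose exon bases 33.4% lie opposite Twnk).

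A few large-subunit genes stayed level or leaned upward without being called, and they were picked out here after their values were seen. Mrpl52 had 32, 23.2 and 38.7 CPM with the Wnt1 plasmid, against 18, 23.5 and 26.9 CPM with the empty vector (log2 fold change 0.46 ± 0.23, edgeR adjusted p = 0.144). Mrpl23 had 26.2, 24.4 and 35.8 CPM with the Wnt1 plasmid, against 24.4, 23 and 27.7 CPM with the empty vector (0.21 ± 0.18, edgeR adjusted p = 0.395). The groups overlapped for both genes, and both were called higher with library totals. Mrpl23 shares 65.4% of its 75-base stretches with its pseudogene Mrpl23-ps1, so its counts are uncertain.

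Because the scaling moves all genes of a library together, the ratio of 1 member to the others within a library does not depend on it. Relative to the median of the tested members in the same library (log2), Mrpl33 stood at -0.35, -0.28 and -0.37 in Wnt1 replicates 1, 2 and 3, against -1.55, -1.71 and -1.54 in empty-vector replicates 1, 2 and 3. The ratio was higher in every Wnt1 library than in any empty-vector library, by 1.26 on average, and this was the widest such gap among the members. Mrpl52 stood at -0.18, -0.44 and -0.15 with the Wnt1 plasmid, against -1.31, -0.98 and -0.93 with the empty vector. In the other direction Mrps6 stood at 0.56, 0.45 and 0.72, against 1.09, 0.92 and 1.03 with the empty vector. The widest gap downward was that of Mrps6 (-0.44). Groups that did not overlap on this ratio were common among the tested members. The ratio was higher in every Wnt1 library for 37 members and lower in every Wnt1 library for 18. Lack of overlap alone thus did not set Mrpl33, Mrpl52 or Mrps6 apart. These ratios are descriptions: an exact two-sided permutation test of 3 against 3 libraries cannot go below p = 0.1.

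**Figure D2:**
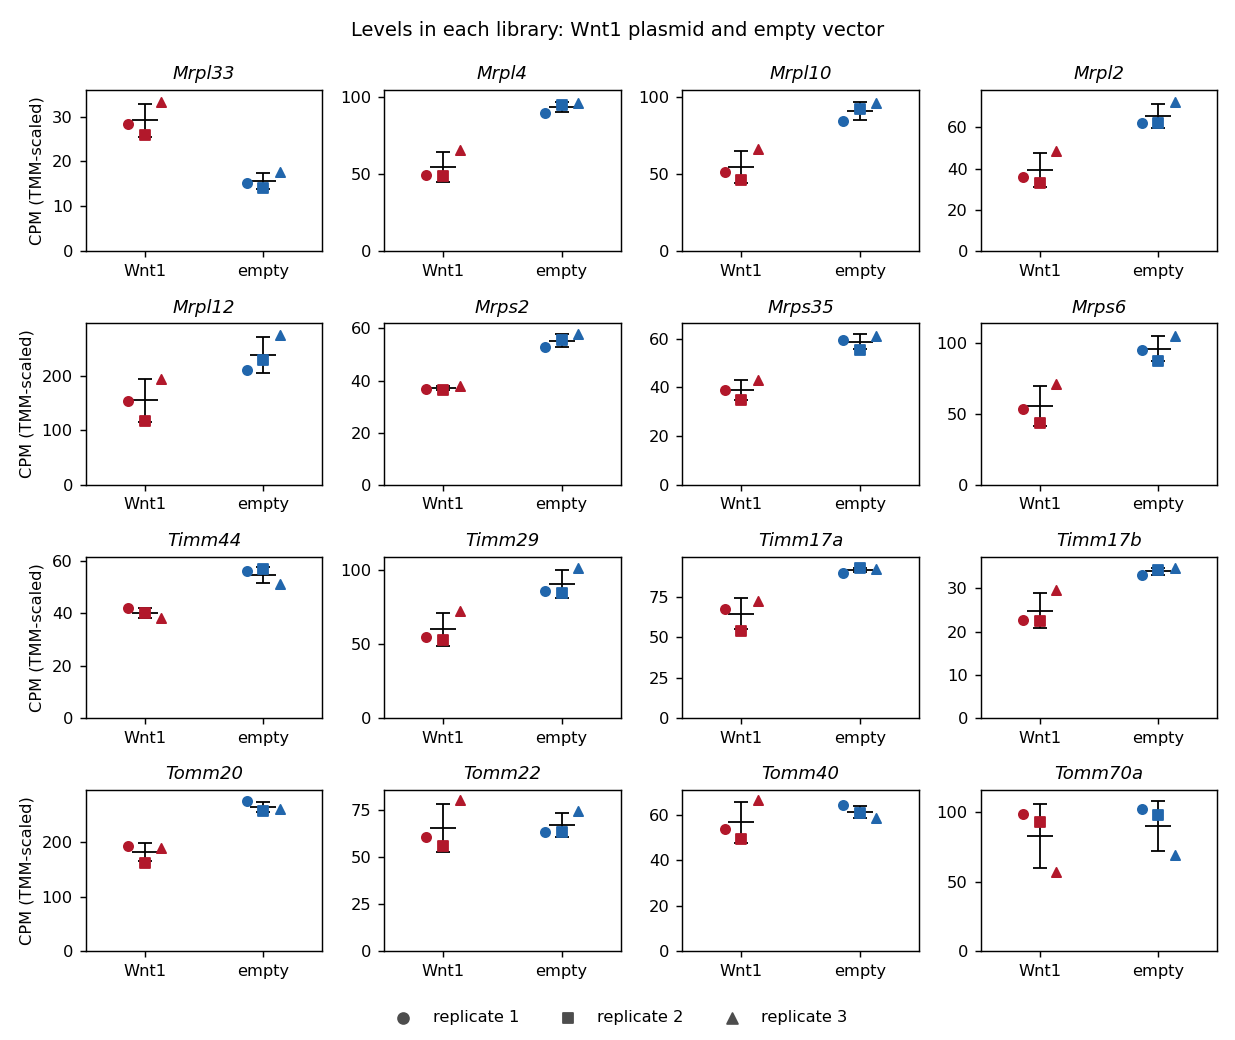
Level of 16 genes in each library (y axis, TMM-scaled CPM, from 0) with the Wnt1 plasmid (left) and the empty vector (right) on the x axis. Marker shapes give the replicate, the black bar is the mean and the whiskers 1 SD of 3 libraries. Mrpl33 is higher in every Wnt1 library, from Mrpl4 to Tomm20 the Wnt1 libraries lie below the empty-vector ones, and Tomm22, Tomm40 and Tomm70a overlap.

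Small-subunit genes showed the same picture with no member called higher: 11 of 29 were called lower (37.9%, beside 18.7% of all tested genes), and the median log2 fold change was -0.40. Mrps2, of the universal S2 family of ribosomal proteins, had 36.7, 36.4 and 37.9 CPM with the Wnt1 plasmid, against 52.7, 55.7 and 57.7 CPM with the empty vector. Its Wnt1 libraries lay close together and the groups were well apart (-0.58 ± 0.12, edgeR adjusted p = 0.0049). Mrps35, a small-subunit protein found in mitochondrial ribosomes and not in bacterial ones, had 39, 34.9 and 43 CPM with the Wnt1 plasmid, against 59.6, 55.3 and 61.3 CPM with the empty vector (-0.59 ± 0.13, edgeR adjusted p = 0.00821).

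Mrps6, the relative of bacterial S6, had 53.2, 43.1 and 70.9 CPM with the Wnt1 plasmid, against 95.2, 87.4 and 105 CPM with the empty vector (-0.78 ± 0.19, edgeR adjusted p = 0.0131). It shares 30.1% of the 75-base stretches of its transcript with the overlapping genes Slc5a3, a myo-inositol transporter, and Gm49711, both in the table, so its counts are uncertain. Mrps31 had 22.5, 20.7 and 15.4 CPM with the Wnt1 plasmid, against 39.2, 31.1 and 28.1 CPM with the empty vector (-0.74 ± 0.19, edgeR adjusted p = 0.0168). In Mrps31 replicate 3 was the lowest library of each group, unlike in Mrpl4 or Mrps6, where it was the highest. The other small-subunit symbols called lower were Mrps5, Mrps7, Mrps9, Mrps12, Mrps21, Mrps26 and Mrps30, with log2 fold changes of -0.69 (Mrps7) to -0.40 (Mrps30).

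Symbols do not always give the subunit: Mrps30 and Mrps18a sit in the large subunit of the mammalian mitochondrial ribosome, and Mrps36 is known as a subunit of the oxoglutarate dehydrogenase complex. With the first pair moved and Mrps36 (-0.50, not called) set aside, 12 of 51 large-subunit genes were lower (median -0.32) and 10 of 26 small-subunit genes (median -0.37). These are 23.5% and 38.5%, beside 18.7% of all tested genes, so the large-subunit share was near that of all genes. The paralogues Mrps18a, Mrps18b and Mrps18c descend from the bacterial S18 protein and were not called. Mrps18a had 38.6, 38.4 and 52.4 CPM with the Wnt1 plasmid, against 50.7, 55.5 and 64.9 CPM with the empty vector (-0.40 ± 0.17, edgeR adjusted p = 0.0967). Mrps18b had 34.7, 31 and 44.4 CPM, against 37.9, 41 and 46.1 CPM with the empty vector (-0.18 ± 0.17, edgeR adjusted p = 0.419), and Mrps18c had 23.3, 17.2 and 22.7 CPM, against 20.5, 17.6 and 18 CPM (0.17 ± 0.17, edgeR adjusted p = 0.443). The groups overlapped for all 3 paralogues. Mrps18b shares 26.7% of its 75-base stretches with Gm13552 and has 30.5% of its exon bases opposite Gm16279, so its counts are uncertain. Genes with a relative in bacteria and genes particular to mitochondrial ribosomes had medians of -0.31 and -0.36 in the large subunit and -0.40 and -0.32 in the small subunit.

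The stretch upstream of the RefSeq start is shown for 3 called genes that differ in direction and motif content. For Mrpl33 that start, and the bases shown before it, lie inside the longer gene span given further below. RefSeq promoters of GRCm38.p6 were found for 91 of the 103 members. Each line gives the 250 bases before the start, 5′ to 3′ on the gene's strand, and capitals mark matches, on either strand, to GCGCATG (part of the site of NRF1, a factor that controls many nuclear genes for mitochondria) or CCGGAAG (the core bound by ETS factors such as GABP).
Mrpl33 (higher; chr5:31613701-31613950, + strand): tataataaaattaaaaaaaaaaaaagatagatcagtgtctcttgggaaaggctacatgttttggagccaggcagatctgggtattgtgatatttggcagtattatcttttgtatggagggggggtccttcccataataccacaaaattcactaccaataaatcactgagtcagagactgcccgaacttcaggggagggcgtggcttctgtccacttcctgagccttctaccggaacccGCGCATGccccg
Mrpl10 (lower; chr11:97041332-97041581, + strand): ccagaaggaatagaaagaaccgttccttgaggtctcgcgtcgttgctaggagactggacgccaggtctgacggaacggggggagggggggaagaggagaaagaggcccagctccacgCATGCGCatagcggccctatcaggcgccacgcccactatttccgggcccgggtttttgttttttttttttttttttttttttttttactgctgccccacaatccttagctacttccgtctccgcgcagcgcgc
Timm29 (lower; chr9:21592472-21592721, + strand): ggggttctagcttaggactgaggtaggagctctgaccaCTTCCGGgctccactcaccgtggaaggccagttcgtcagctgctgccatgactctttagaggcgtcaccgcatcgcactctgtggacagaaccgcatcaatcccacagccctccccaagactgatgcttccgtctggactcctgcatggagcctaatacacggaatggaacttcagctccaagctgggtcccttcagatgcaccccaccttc
In Mrpl33 a CCGGAAG match also spans the start itself, as does a second GCGCATG match in Mrpl10. Over windows from 250 bases before to 50 after the start, 35 of 91 members (38.5%) held CCGGAAG, against 18.2% of 11352 tested genes with a promoter in the same set. GCGCATG was found in 9 of 91 members (9.9%) and 7.2% of tested genes, and AAGATGG, part of the site of YY1, in 16 of 91 (17.6%) and 7.9%. Matches to different motifs were counted separately even where they overlap, as can happen because CCGGAAG ends in the letters that open AAGATGG. Mrps2, among the genes called lower, held none of them. A match is a description of the letters, not a binding site.

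Of the import genes, 5 of 23 tested were called lower and none higher (edgeR, adjusted p under 0.05). That is 21.7%, near the 18.7% of all tested genes called lower, with a median log2 fold change of -0.29. Tomm20l, a Tomm20-like gene, had no count in any library and Timm8a2 had a single count in 1 empty-vector library, and neither could be tested. At an unadjusted p under 0.05, 0 of the import genes were higher, and DESeq2 called 0 of them higher. Over all families 39 of the 101 tested members had an unadjusted p under 0.05 (edgeR), and Mrpl33 was the single one of these that was higher. The share of all tested genes at that unadjusted threshold was not taken, so the count of 39 does not set the members apart. At the adjusted threshold, 18.7% of all tested genes were lower and 22.4% higher.

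In the outer membrane, the receptor for presequences was lower and the other receptors were not called. Tomm20, that receptor, had 193, 162 and 189 CPM with the Wnt1 plasmid, against 275, 256 and 261 CPM with the empty vector (-0.54 ± 0.12, edgeR adjusted p = 0.00929). The groups were far apart relative to their spread. Tomm22, the central receptor that passes proteins to the pore, had 60.6, 56.2 and 80.3 CPM, against 63.4, 63.4 and 74.7 CPM with the empty vector (-0.03 ± 0.17, edgeR adjusted p = 0.894). Tomm70a, the docking site for carrier proteins and their chaperones, had 98.6, 92.6 and 56.5 CPM, against 102, 97.6 and 69 CPM with the empty vector (-0.11 ± 0.24, edgeR adjusted p = 0.739). Its replicate 3 was low in both groups, and the groups overlapped for Tomm22 and Tomm70a.

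Tomm40, the pore of the complex, had 53.9, 49.5 and 66.5 CPM with the Wnt1 plasmid, against 64.2, 60.8 and 58.7 CPM with the empty vector (-0.11 ± 0.15, edgeR adjusted p = 0.57). The groups overlapped. Its paralogue Tomm40l had 39.2, 33 and 50.8 CPM with the Wnt1 plasmid, against 49.8, 46.3 and 56.3 CPM with the empty vector (-0.31 ± 0.18, edgeR adjusted p = 0.208). Of its annotated sequence, 64.3% of exon bases lie opposite the nuclear receptor gene Nr1i3, so without a statement on strand its counts are uncertain. The small subunits Tomm5, Tomm6 and Tomm7, which hold the pore complex together, had log2 fold changes of 0.17, -0.29 and -0.53, none called. Tomm6 shares 86.2% of its 75-base stretches with Gm21981, so its value is uncertain. Tomm34, a cytosolic cochaperone named with this family, averaged 26.9 ± 3.79 CPM with the Wnt1 plasmid and 23.8 ± 1.33 CPM with the empty vector (0.18 ± 0.15). Tomm5 and Tomm34 were called higher with library totals (0.59 and 0.60).

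In the inner membrane, 3 of the 6 TIM23 genes of the presequence route were called lower (median -0.44). That is 50% of a small list, beside 18.7% of all tested genes. Timm44, which tethers the import motor to the channel, had 42.2, 40.1 and 38.1 CPM with the Wnt1 plasmid, against 56.1, 56.8 and 51.3 CPM with the empty vector (-0.45 ± 0.12, edgeR adjusted p = 0.0186). Timm17a had 67.6, 53.8 and 72.4 CPM, against 90, 92.6 and 92.2 CPM with the empty vector (-0.50 ± 0.14, edgeR adjusted p = 0.0229). Its paralogue Timm17b, which is found in the same place in an alternative form of the complex, had 22.6, 22.5 and 29.5 CPM, against 33, 34.3 and 34.6 CPM with the empty vector (-0.45 ± 0.15, edgeR adjusted p = 0.0424). Both paralogues were thus lower by a similar amount, with no overlap between the groups.

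Timm50, the receptor that takes proteins over from the TOM complex, also had groups that did not overlap, at 48.3, 45.7 and 68.1 CPM with the Wnt1 plasmid, against 72.2, 70.4 and 76.3 CPM with the empty vector, but missed the threshold (-0.43 ± 0.17, edgeR adjusted p = 0.0778). Timm23, which gives the complex its name, had 113, 95.4 and 129 CPM with the Wnt1 plasmid, against 133, 124 and 144 CPM with the empty vector (-0.25 ± 0.15, edgeR adjusted p = 0.21). Its transcript shares 88.4% of its 75-base stretches with copies elsewhere in the genome, so this value is uncertain. Timm21, which links the TOM and TIM23 complexes, was not called (-0.18 ± 0.16).

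On the carrier route, Timm29 was lower and the channel itself was not called. Timm29, a subunit that links TIM22 to the outer membrane complex, had 54.4, 52.4 and 72.5 CPM with the Wnt1 plasmid, against 85.5, 84.5 and 101 CPM with the empty vector (-0.60 ± 0.16, edgeR adjusted p = 0.0207). Timm22, the channel, had 25.5, 22.2 and 34.9 CPM, against 33.7, 33.5 and 37.4 CPM with the empty vector (-0.34 ± 0.18, edgeR adjusted p = 0.178), with Wnt1 replicate 3 inside the range of the empty-vector libraries. The 5 tested small TIM chaperones were not called, with log2 fold changes from -0.46 (Timm9, edgeR adjusted p = 0.0532) to 0.04 (Timm10, edgeR adjusted p = 0.91). Timm10, the partner of Timm9, had 16.5, 12.6 and 20.1 CPM with the Wnt1 plasmid, against 15.5, 13.8 and 18.7 CPM with the empty vector. Timm8b had 54.4, 39.7 and 62 CPM, against 54.9, 59.9 and 66.6 CPM with the empty vector (-0.22 ± 0.18), and Timm8a1 had 31.3, 23.9 and 33.7 CPM, against 29.8, 32.4 and 34.2 CPM (-0.12 ± 0.16). The groups overlapped in these 3 genes. Timm8a1 shares 39.9% of its 75-base stretches with Gm9797, so its counts are uncertain. Timm10b, a TIM22 subunit that docks small TIM chaperones on the membrane, had 21, 18.4 and 25.6 CPM with the Wnt1 plasmid, against 21.7, 18.5 and 24.7 CPM with the empty vector, close to level.

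**Figure D3:**
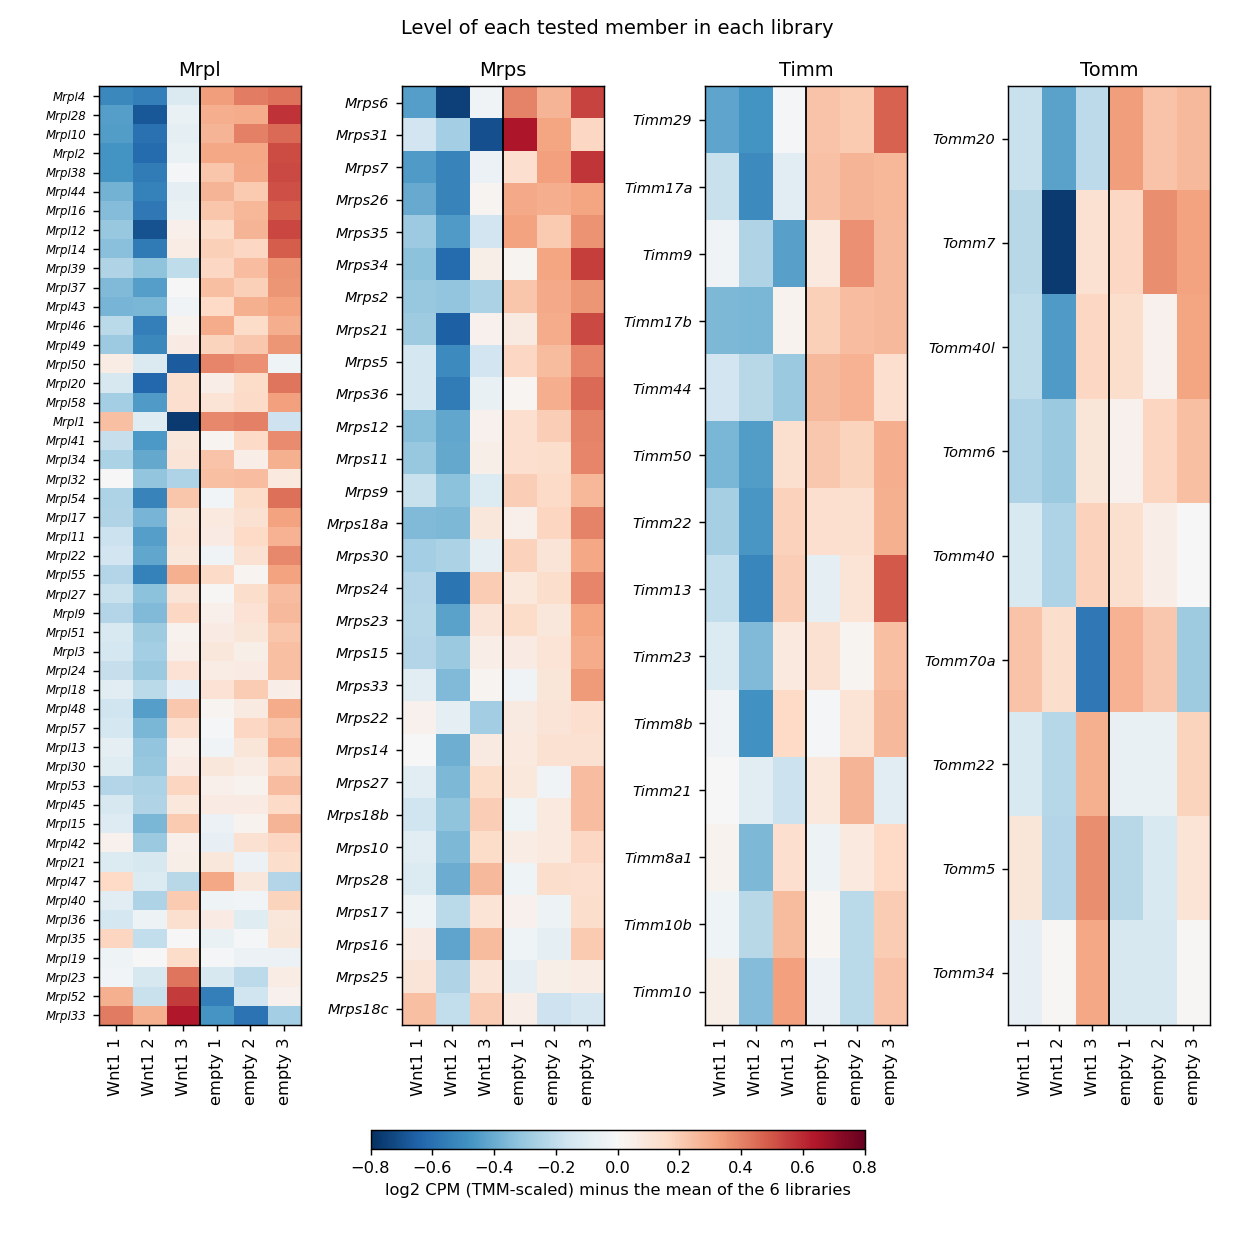
Level of each of the 101 tested genes (rows, ordered by log2 fold change within the 4 families) in each library (columns, Wnt1 plasmid left of the line, empty vector right of it), as log2 TMM-scaled CPM minus the mean of the 6 libraries. Blue marks low and red high values. Most rows are bluer on the left, Wnt1 replicate 2 is the bluest column, and Mrpl1 and Tomm70a are blue in both libraries numbered 3.

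Compared per length, with the authors' FPKM values (scaled by transcript length and library size, with no factor for composition), Mrpl12 was the highest member at 136 ± 30 FPKM with the Wnt1 plasmid and 156 ± 18.7 FPKM with the empty vector (SD, n = 3 each). Mrpl42 and Mrps21 followed with 134 ± 13.9 and 118 ± 22.9 FPKM with the Wnt1 plasmid, against 111 ± 7.64 and 133 ± 17.9 FPKM with the empty vector. With the Wnt1 plasmid the ranges of mean ± 1 SD of these 3 overlapped, and with the empty vector Mrps21 stood above Mrpl42. In Wnt1 replicates 1 and 2 Mrpl42 was above Mrpl12 (144 and 118 FPKM, against 135 and 106), and in Wnt1 replicate 3 below it (139 against 166). Mrpl47 was the lowest tested member at 4.77 ± 0.719 FPKM with the Wnt1 plasmid and 3.9 ± 0.791 FPKM with the empty vector. Summed over the 78 Mrpl and Mrps genes, FPKM came to 3207, 2826 and 3719 with the Wnt1 plasmid, against 2945, 3022 and 3351 with the empty vector. Summed over the 25 import genes it came to 988, 858 and 1110 with the Wnt1 plasmid, against 835, 843 and 913 with the empty vector. On this scale, which carries the shift of library totals, neither sum was lower with the Wnt1 plasmid, and Wnt1 replicate 2 was the lowest of its group in both.

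Replicate 3 differed from replicates 1 and 2 in a way that moved with the GC content and the length of the transcripts. With the Wnt1 plasmid, its log2 level minus the mean of replicates 1 and 2 ran from -0.81 (Mrpl1) to 0.65 (Mrpl55), and with the empty vector from -0.55 (Mrpl1) to 0.47 (Timm13). It was above 0 for 91 of 101 members with the Wnt1 plasmid and for 88 with the empty vector. Across the 101 members this difference had a correlation with transcript GC content of r = 0.58 and rho = 0.61 with the Wnt1 plasmid, and of r = 0.50 and rho = 0.45 with the empty vector. Its correlation with transcript length (log2) was r = -0.36 and rho = -0.37 with the Wnt1 plasmid, and r = -0.41 and rho = -0.45 with the empty vector. The points share their libraries and genes are not independent, so no p is given. Over all tested genes r with GC content was 0.70 with the Wnt1 plasmid and 0.55 with the empty vector, so the pattern was not limited to these genes. Log2 fold changes of the members had r = -0.23 with GC content and r = -0.09 with transcript length (log2). With an offset for GC content, 68 members were called lower and 1 higher, beside 35.6% and 22.7% of all tested genes. With an offset for transcript length, 67 were called lower and 1 higher, beside 29% and 19.1% of all tested genes.

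**Figure D4:**
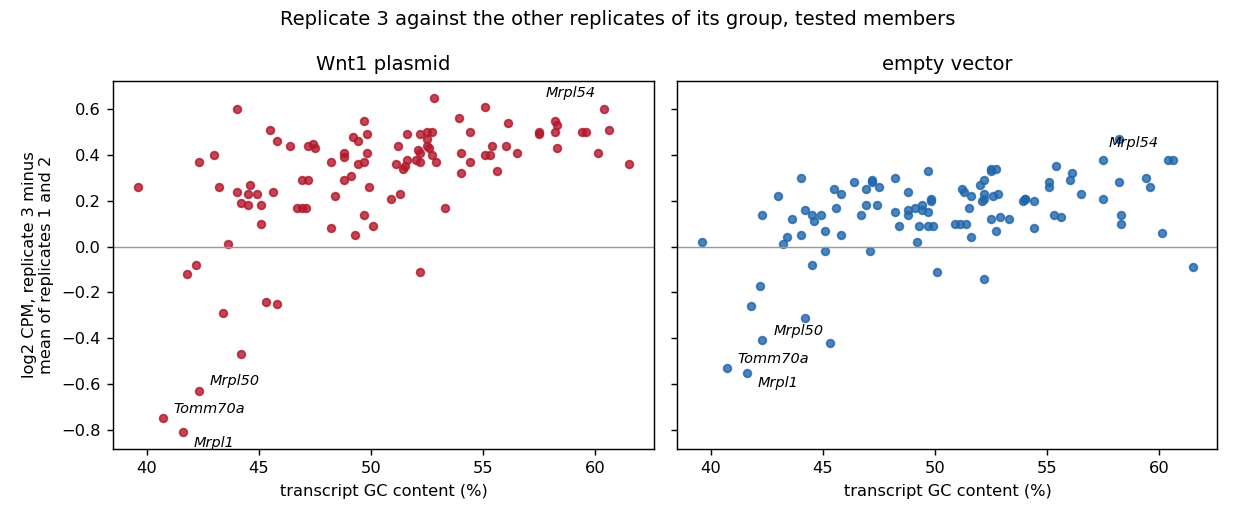
Difference in log2 CPM (y axis) between replicate 3 and the mean of replicates 1 and 2, against the GC content of the transcript (x axis, percent), for the 101 tested genes with the Wnt1 plasmid (left) and the empty vector (right). The GC-poor transcripts of Mrpl1 and Tomm70a lie lowest in both panels, and most others lie above 0.

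Other genes of mitochondrial translation were also lower in part. For comparison, 18.7% of all tested genes were called lower and 22.4% higher on the TMM scale, and 8.92% and 44% with library totals. Of 5 ribosomal proteins with other symbols, 1, Dap3, a small-subunit GTP-binding protein, was called lower (-0.59 ± 0.16). That is 20%, near the share of all genes. Among factors that assemble the ribosome or modify its RNA, 8 of 26 were lower and none higher (median -0.37), led by Rpusd3, a pseudouridine synthase (-1.02 ± 0.16), and the GTPases Mtg2 (-0.82 ± 0.16) and Noa1 (-0.66 ± 0.14). With library totals 2 of the 26 were lower, 1 was higher and the median was 0.05, and Dap3 and Noa1 were no longer called. Among translation factors, 9 of 14 were lower and none higher (median -0.58). The elongation factor Gfm1 had 85.8, 74.5 and 89.3 CPM with the Wnt1 plasmid, against 158, 159 and 167 CPM with the empty vector (-0.95 ± 0.12, edgeR adjusted p = 0.000653), and the recycling factor Gfm2 (-0.93 ± 0.14) and the initiation factor Mtif3 (-0.90 ± 0.15) were lower as well. Among the enzymes that charge mitochondrial transfer RNAs, 13 of 20 were lower and none higher (median -0.53), with Gatb, a subunit of the enzyme that amidates glutamyl-tRNA, at -1.65 ± 0.17, Iars2 at -0.75 ± 0.11 and Lars2 at -0.82 ± 0.13. With library totals 4 of the translation factors and 4 of the charging enzymes were still called lower, and 1 of each was called higher (medians -0.16 and -0.11).

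Other genes of import and folding were also lower in part. The shares of all tested genes were 18.7% lower and 22.4% higher on the TMM scale, and 8.92% and 44% with library totals. Of 22 genes for the import motor, sorting and processing of imported proteins, 9 were lower and none higher (median -0.42). Pmpcb, the catalytic subunit of the peptidase that cuts off presequences, had 90.1, 83.9 and 112 CPM with the Wnt1 plasmid, against 247, 256 and 295 CPM with the empty vector (-1.48 ± 0.15, edgeR adjusted p = 0.000245). Its partner Pmpca (-0.83 ± 0.14) and the second peptidase Mipep (-1.09 ± 0.16) were lower too. Of 14 mitochondrial chaperones and proteases, 9 were lower and none higher (median -0.67). They included the HSP90 relative Trap1 (-1.31 ± 0.17), the disaggregase Clpb (-1.06 ± 0.16) and the protease Lonp1 (-1.04 ± 0.16). With library totals the import motor list had 4 lower and 1 higher (median -0.00) and the chaperone and protease list 4 lower (median -0.26). The 6 genes named here were among those still called, at -1.06 to -0.41.

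The transcripts that the mitochondrial ribosome reads were lower as well. Counts in this paragraph stand beside 18.7% lower and 22.4% higher of all tested genes with TMM, and 8.92% and 44% with library totals. All 13 protein-coding genes of the mitochondrial genome were called lower (median -1.27, range -1.48 to -1.08), and 8 were with library totals (median -0.84). The cytochrome oxidase subunit mt-Co1 had 27051, 22815 and 22050 CPM with the Wnt1 plasmid, against 55353, 50725 and 53143 CPM with the empty vector (-1.15 ± 0.17, edgeR adjusted p = 0.0012). Nuclear genes for respiratory chain and ATP synthase subunits gave 50 lower and 1 higher of 82 tested (median -0.64), and 15 lower and 1 higher with library totals (median -0.22). Cytosolic ribosomal proteins went the other way, with 51 higher and 2 lower of 95 tested (median 0.49), and 85 higher and 1 lower with library totals (median 0.91). On the TMM scale the medians of the mitochondrial ribosome (-0.34) and import genes (-0.29) lay between those of these lists. In these lists of mitochondrial translation, import and folding genes, edgeR with TMM over all 6 libraries called 0 genes higher, and so did DESeq2. At an unadjusted p under 0.05 (edgeR, TMM) 0 were higher. With library totals several of these lists held 1 gene called higher. The differences between lists were not tested.

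**Figure D5:**
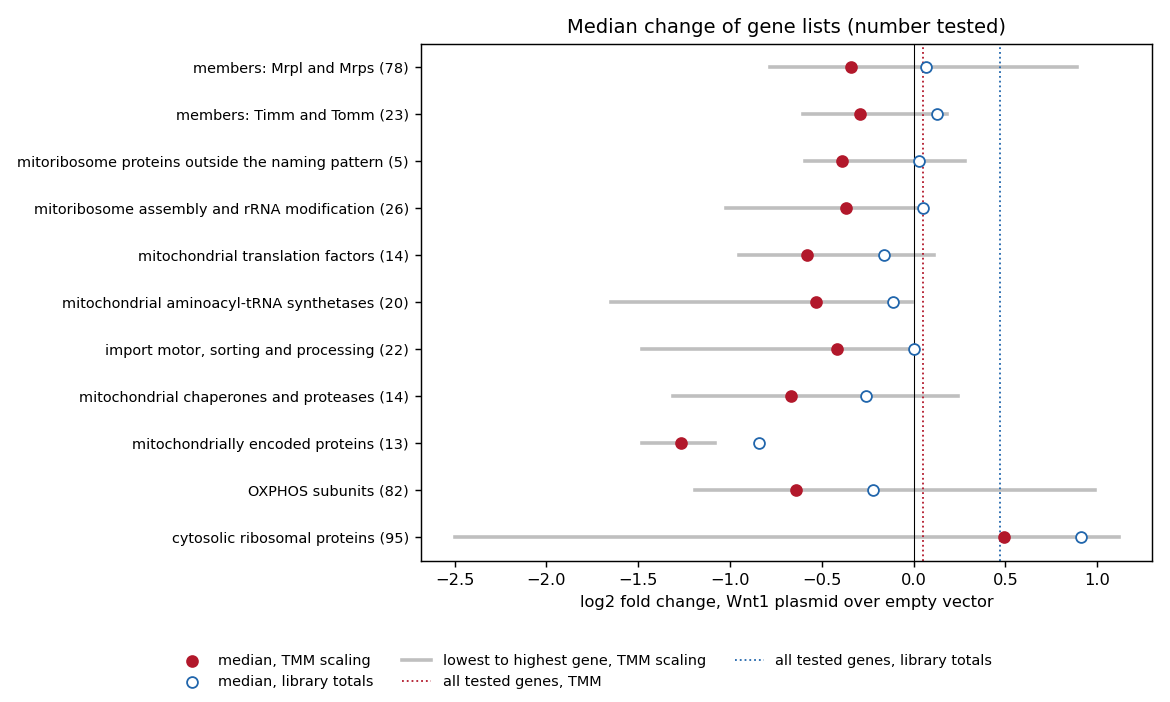
Median log2 fold change (Wnt1 plasmid over empty vector, x axis) of each gene list (y axis, number of tested genes in brackets) with TMM scaling (filled) and library totals (open), and the range of single genes with TMM scaling (grey). Dotted lines are the medians of all tested genes. Ribosome and import genes lie at -0.34 and -0.29, genes of the mitochondrial genome at -1.27 and cytosolic ribosomal proteins at 0.49 with TMM.

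Markers of other cells moved in the same libraries, where 18.7% of all tested genes were called lower and 22.4% higher. In bulk tissue, fewer cells of a type and less RNA per cell cannot be told apart. Proximal tubule markers gave 15 lower and 0 higher of 16 (median -2.16). Their summed level was 7971 to 11508 CPM with the Wnt1 plasmid, against 44570 to 52023 CPM with the empty vector. A large part of these sums was Kap alone, with means of 3030 CPM with the Wnt1 plasmid and 22015 CPM with the empty vector. Thick ascending limb and distal tubule markers gave 5 lower and 0 higher of 7, with sums of 2752 to 4350 CPM, against 8320 to 8957 CPM with the empty vector. Umod alone averaged 2537 CPM with the Wnt1 plasmid and 6025 CPM with the empty vector. The highest of the 7 had a log2 fold change of 0.56, with groups that did not overlap, and was not called. With library totals 1 of the 7 was called higher. Collecting duct markers gave 3 lower and 0 higher of 5, with sums of 292 to 591 CPM, against 661 to 746 CPM with the empty vector. Of these 5, library totals gave 1 called higher. Macrophage markers gave 11 higher of 11, with sums of 1828 to 2216 CPM, against 229 to 274 CPM with the empty vector. Fibroblast markers gave 7 higher of 7, with sums of 1859 to 3102 CPM, against 439 to 583 CPM with the empty vector. Of 6 neutrophil markers 4 were tested and all 4 were higher, with sums of 13.4 to 18.6 CPM, against 1.2 to 1.43 CPM with the empty vector. No marker of these lists was at 0 in all 6 libraries. The part of these cell types in the changes of mitochondrial ribosome and import genes was not tested.

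In GRCm38 (GENCODE M21), Mrpl33 lies on chromosome 5, 31596935 to 31664384 (ENSMUSG00000106918), Mrpl4 on chromosome 9, 21002738 to 21008839 (ENSMUSG00000003299) and Mrps2 on chromosome 2, 28468066 to 28471178 (ENSMUSG00000035772). Timm44 lies on chromosome 8, 4259731 to 4275913 (ENSMUSG00000002949) and Tomm20 on chromosome 8, 126930667 to 126945844 (ENSMUSG00000093904). The 103 members are spread over 20 chromosomes. Their transcripts were shorter than those of all tested genes, with a median length of 1418 bases against 3130, and alike in GC content, with a median of 49.8% against 50.3%.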

How the data were processed

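RNA from whole mouse kidney was measured in 6 libraries, 3 with the Wnt1 plasmid and 3 with the empty vector, grouped by the treatment label; replicate numbers follow the order of the records and pair nothing. Per the labels' protocols, oligo(dT) beads enriched messenger RNA before NEBNext Ultra library preparation and NovaSeq sequencing. The build mm10 and the tools HISAT2, RSEM, StringTie 1.3.1, Bowtie2 2.2.8 and fastp 0.18.0 come from the submitters' processing notes, with no role or order. The annotation and any use of strand were not stated. For each gene and library, the deposited table gives an expected count (9.02% of these were not whole) and an FPKM value, both made by the authors.

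Counts were rounded and tested in R 4.3.3 with edgeR 4.0.16 (filterByExpr, TMM, robust quasi-likelihood test, two-sided, Benjamini-Hochberg over 14432 genes). Standard errors come from the coefficient and the F statistic. The procedure was also run on simulated counts with 200 changed genes. These held no shift of composition and no replicate 3 pattern like those in the data, so that run does not bear on the scaling. Alternatives were DESeq2 1.42.0, limma 3.58.1 on log2(FPKM + 1) or log2(FPKM + 0.1), other scalings and filters, offsets for transcript GC content and length (loess, span 0.3), and leaving out libraries. Coordinates, lengths and GC content are from GENCODE M21 (22128 of 22183 genes matched), and promoters from RefSeq GRCm38.p6. Taken over many genes together, replicates of a group differed by more than counting noise. Intervals of levels are SDs over 3 libraries, and counts of tested members were at least 264 per library. Counting error was not separated from these SDs. For some members it can be as large as the spread, as for Mrpl19 with the empty vector (SD 0.355 CPM on a mean of 25.4 CPM).

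The members, lists and the rule for named genes were chosen with earlier results of these data known. The rule took, in each family, the 4 called members with the smallest p and the largest rise and fall, Mrpl12 and a set of translocase subunits and paralogues whatever their values, and up to 3 called genes from each list. Of the genes listed by hand, Trmt61b was not found in the table by that symbol.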

Additional observations from a re-analysis of the deposited data

How the results depend on the processing

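On the TMM scale 27 of 101 tested members were lower and 1 higher with the Wnt1 plasmid, with a median log2 fold change of -0.32. Library totals gave 1 lower, 11 higher and a median of 0.10 (all tested genes 8.92% lower, 44% higher). Both log2(FPKM + 1) and log2(FPKM + 0.1) gave 1 lower, 13 higher and 0.11 (all genes 9.89% and 9.86% lower, 41.1% and 41% higher), and log2(FPKM + 1) without a filter gave 0 lower, 11 higher and 0.11 (all genes 7.07% lower, 33.1% higher). The FPKM scales carry no composition factor, as library totals do not. The number lower was 68 with the GC offset (median -0.50), 67 with the length offset and 69 without both libraries numbered 3 (all genes 35.6%, 29% and 30.4%). Both offsets moved the median of all tested genes to -0.14, from 0.05 with TMM alone. Leaving out 1 library gave 9 to 64 lower, or 8.91% to 63.4% of the members, beside 12.2% to 27.2% of all genes. The members' share was below that of all genes without Wnt1 replicate 2 (9.9%, against 13.3%), empty-vector replicate 2 (11.9%, against 12.2%) and empty-vector replicate 3 (8.91%, against 12.6%), and close to it without Wnt1 replicate 1 (13.9%, against 13.7%). DESeq2 gave 36 lower, median-ratio factors 33, upper-quartile factors 19, no filter 23 and a CPM filter 25 (all genes 16.8%, 20%, 15.1%, 13.9% and 19%), and in these 5 settings 1 member was higher. The members' median stayed below that of all tested genes in the 18 alternatives, by 0.11 to 0.47. Except as given, the causes were not tested. No paired analysis was possible because the replicate numbers follow the order of the records and pair no libraries.

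For the 47 genes followed, 846 gene-by-setting results gave 658 on the same side of zero and of the threshold, 82 that lost and 32 that gained a call, and 74 with the opposite sign. With library totals the log2 fold change was 0.02 for Mrps18a, 0.23 for Mrps18b, 0.42 for Timm10b, 0.07 for Timm22, 0.17 for Timm23, 0.30 for Timm8a1, 0.20 for Timm8b, 0.38 for Tomm22, 0.30 for Tomm40, 0.10 for Tomm40l and 0.31 for Tomm70a. On log2(FPKM + 1), with or without a filter, it was 0.01 for Mrps18a, 0.21 for Mrps18b, 0.03 for Mrps35, 0.38 for Timm10b, 0.17 for Timm22, 0.16 for Timm23, 0.28 for Timm8a1, 0.18 for Timm8b, 0.10 for Tomm20, 0.38 for Tomm22, 0.28 for Tomm40, 0.0032 for Tomm40l and 0.27 for Tomm70a. On log2(FPKM + 0.1) it was 0.01 for Mrps18a, 0.22 for Mrps18b, 0.04 for Mrps35, 0.39 for Timm10b, 0.17 for Timm22, 0.16 for Timm23, 0.29 for Timm8a1, 0.18 for Timm8b, 0.10 for Tomm20, 0.39 for Tomm22, 0.29 for Tomm40, 0.0016 for Tomm40l and 0.28 for Tomm70a. The GC offset gave -0.07 for Mrps18c and -0.09 for Timm10, and the length offset -0.15, DESeq2 -0.0012 and both libraries numbered 3 left out -0.01 for Timm10. Timm10b was 0.10 with upper-quartile factors, 0.06 with no filter and 0.01 with the CPM filter, and Tomm22 was 0.07 with upper-quartile factors and 0.02 with no filter. With 1 library left out, values ran across 0, from -0.14 to 0.24 for Timm10, -0.14 to 0.19 for Timm10b, -0.22 to 0.02 for Timm8a1, -0.20 to 0.13 for Tomm22 and -0.26 to 0.09 for Tomm70a. All of these genes other than Mrps35 and Tomm20 were uncalled on the TMM scale.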
